A study of Solanum lycopersicum with 9 samples.

Results

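Transcripts of the leaf primordium (LP) were compared with those of the central zone (CZ) of the shoot apical meristem in the shoot apex of tomato (Solanum lycopersicum). The genes compared were all those that reached a normalized count of 6 in any of the 3 LP and 3 CZ libraries, 3270 of the 34866 genes in the table (9.4%), and among them 58 differed between the zones, 48 higher and 10 lower in LP. The study sequenced laser-captured tissue of LP, of the peripheral zone (PZ) and of CZ as 9 libraries, 3 per zone, to follow transcripts along the path on which plastids become chloroplasts. All libraries came from seedlings of the line M82 SP+, without mutation or treatment, at 12 to 14 days of age, kept in sterile culture at 21 to 23 °C, with 11 h of light a day and 13 h of darkness. LP tissue was cut from the abaxial (lower) side of a young primordium and CZ tissue from the area of the meristem that showed no chlorophyll, so that greening was part of how the zones were picked, and the adaxial side of the leaf is not in LP. Each library pooled 3 cryosections of 10 µm, and from which seedlings a library came is not given in the sources used here. The p-values therefore measure the spread between these libraries only.

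The CZ holds the slowly dividing stem cells from which the shoot is built. A leaf starts at the flank of the meristem, where genes that keep cells in the meristem state are switched off and genes that set the lower and upper faces of the leaf are switched on. Plastids in meristem cells are small and nearly colourless, and most proteins of the chloroplasts they turn into are encoded in the nucleus and imported.

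The 3 LP libraries held 97353, 78363 and 40286 reads on genes and the 3 CZ libraries 144665, 64993 and 51659, so that a single read was worth between 0.2885 and 1.09 normalized counts. A sum of 3 reads over a zone corresponds to a mean normalized count of 0.614 in LP and of 0.489 in CZ. Across genes, log values of libraries of the same zone correlated with 0.572 to 0.708, which is across genes and not a measure over replicates. Values below are normalized counts in the order of replicates 1, 2 and 3, and fold changes are limma's, LP minus CZ on the log2(normalized count + 1) scale, which understates changes of genes with few reads. A gene was called if its Benjamini-Hochberg adjusted p over all 3270 genes did not exceed 0.05 and it changed by 1.5-fold or more. limma took nearly all of its estimate of the spread from other genes of similar level, so that a gene can be called on the strength of 1 library, and the libraries that calls needed are named beside them or counted over their group.

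Most differences ran upwards. The 58 genes called were 1.77% of those tested, the 48 higher ones 1.47% and the 10 lower ones 0.306%. Of the 48 higher genes, 14 belong to the study's list of nuclear genes for chloroplast-targeted proteins (the chloroplast list below), while 34 higher genes and all 10 lower genes lie outside it. Only 18 of the 58 genes have a name or description in the sources used here, and the other 40 are given by their identifiers. At an unadjusted p of at most 0.05, 372 genes (11.4%) differed, 238 of them (7.28%) higher and 134 (4.1%) lower in LP. All 3 LP libraries lay above all 3 CZ libraries in 320 genes (9.79%) and below them in 222 (6.79%), and 51 of the 58 called genes were free of overlap. With TMM scaling, an alternative way to make libraries comparable, 29 genes were called higher and 10 lower. The number of calls fell to 22 without LP1, 30 without LP2 and 32 without CZ3.

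The calls were not spread evenly over levels of expression. None of the 626 genes with a mean of less than 3 over the 6 libraries was called, against 4 of 1423 (0.281%) between 3 and 6, 13 of 693 (1.88%) between 6 and 12, 22 of 298 (7.38%) between 12 and 24 and 19 of 230 (8.26%) above. The median of these means was 16.6 over called genes and 4.86 over all genes tested. For genes without a call, and above all for weakly expressed ones, differences that are absent and differences too small to detect at this depth cannot be told apart. The median log2 fold change of all genes was 0.04, and with TMM scaling it was −0.07, a shift of −0.11 under which all 58 called genes had the same direction as before.

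**Figure D1:**
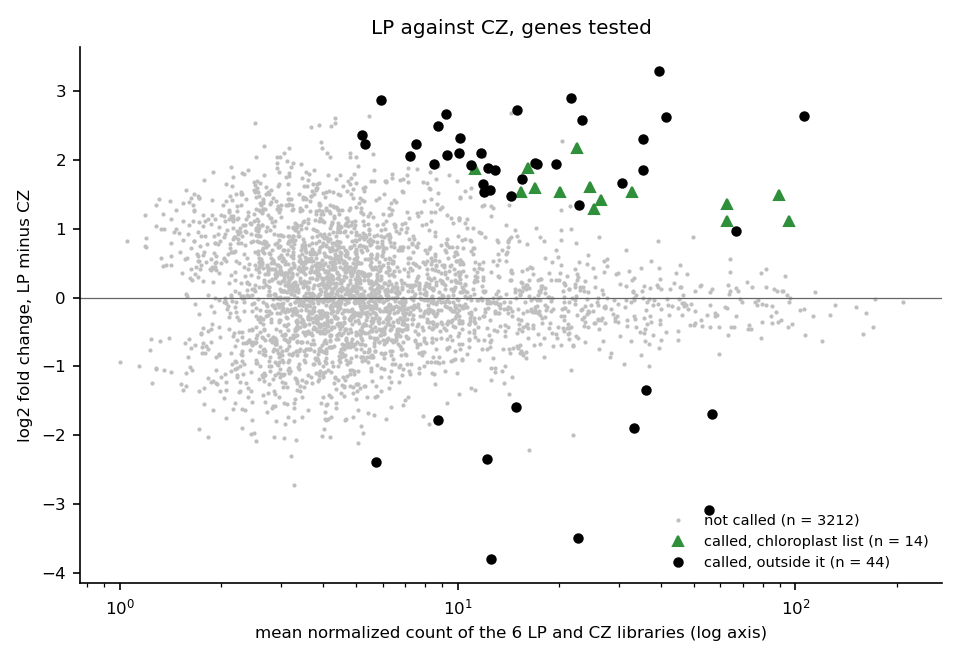
Log2 fold change between LP and CZ of the 3270 genes tested, against the mean normalized count of the 6 libraries on a log axis; grey points were not called, green triangles are the 14 called genes of the chloroplast list and black circles the 44 called genes outside it. The called genes lie at means of 5.22 and above, and the 3 most negative changes lie below −3.

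Among regulators of development, the meristem markers STM and CUC2 were lower in every LP library than in any CZ library (background 6.79%). The abaxial leaf markers YABBY1 and YABBY3 were higher in every LP library (background 9.79%). The study chose the genes of its lists on these same libraries. Genes that passed only at an unadjusted p of at most 0.05 also had to be upheld by its qPCR, which is not used here. The markers are therefore no independent check of the zone labels. STM (Solyc02g081120.2), a homeobox transcription factor known from Arabidopsis to keep meristem cells undifferentiated, had 1.3, 0.6 and 1.09 in LP, against 9.81, 4.67 and 17 in CZ. Every LP library was below every CZ library, and with 5 reads in LP and 61 in CZ the gene fell (log2 fold change −2.39, standard error 0.65, adjusted p = 0.0208). YABBY1 (Solyc01g091010.2), a transcription factor of abaxial cell fate, rose, with 17.7, 22.3 and 40.4 in LP, against 14.4, 6.67 and 1.7 in CZ (log2 fold change 1.94, standard error 0.45, adjusted p = 0.00351). Its highest library was LP3 and its lowest CZ3, and the zones did not overlap. Since each library holds RNA of many cells, fewer cells that express a gene and less RNA of it per cell cannot be told apart, here or for the genes below. The call on STM was lost without LP1, LP2, CZ1 or CZ3 (adjusted p = 0.0804, 0.103, 0.121 and 0.362, range over all alternatives 0.00951 to 0.362) and that on YABBY1 without LP3 or CZ3 (0.132 and 0.296, range 0.000304 to 0.296). YABBY1 was not called on recovered reads by edgeR (adjusted p = 0.104) or DESeq2 (adjusted p = 0.0794).

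Beside STM and YABBY1, 1 more of the 11 tested genes in the study's list of development genes passed the test, and it was lower in LP (background of calls in either direction 1.77%). FD (Solyc02g083520.2), encoding a bZIP transcription factor of the transition to flowering, had 6.05, 7.85 and 6.55 in LP, against 16.1, 27.3 and 25.5 in CZ. The LP libraries lay close together and below all CZ libraries (log2 fold change −1.59, standard error 0.45, adjusted p = 0.0293). This call was lost without any of the LP libraries and without CZ2 or CZ3 (adjusted p = 0.0532 to 0.218, range over all alternatives 0.00817 to 0.224), and edgeR gave an adjusted p of 0.0506. The other FD gene (Solyc02g061990.2) had 1.3, 1.21 and 2.18 in LP, against 14.1, 12 and 1.7 in CZ, and was not called (adjusted p = 0.222), its CZ3 value being within the range of LP.

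The other genes of that list did not pass the adjusted test, although the unadjusted p of all 11 tested was at most 0.05 (background 11.4%), 4 of them higher (background 7.28%) and 7 lower in LP (background 4.1%). The study chose them on these libraries, so these counts are not independent evidence of direction. CUC2 (Solyc07g062840.2), a transcription factor of organ boundaries, had 2.59, 3.62 and 6.55 in LP, against 15.6, 20.01 and 7.66 in CZ (adjusted p = 0.0687). YABBY3 (Solyc08g079100.2), a further abaxial factor, had 8.64, 18.1 and 6.55 in LP, against 3.17, 4 and 0.85 in CZ (adjusted p = 0.123). In both genes the zones did not overlap, CUC2 being lower and YABBY3 higher in LP.

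A further 3 genes of the list had less in LP. SVP (Solyc04g076280.2), a regulator of flowering, had 2.16, 3.02 and 4.37 in LP, against 6.92, 10 and 11.1 in CZ. SPT (Solyc02g093280.2), a factor of floral organ formation, had 0.43, 1.81 and 1.09 in LP, against 6.35, 6 and 5.1 in CZ. AP2 (Solyc03g123430.2), listed as an ethylene response factor, had 1.3, 1.21 and 2.18 in LP, against 8.37, 8 and 6.81 in CZ. In these 3 genes the zones were apart in all libraries, with log2 fold changes of −1.32, −1.74 and −1.78 and adjusted p of 0.33, 0.248 and 0.218.

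MDR1 (Solyc02g087870.2), an ABC transporter of auxin efflux, had 11.7, 8.45 and 10.9 in LP, against 3.75, 2 and 1.7 in CZ. CRK (Solyc01g090450.2), listed under actin polymerization, had 4.75, 6.64 and 13.1 in LP, against 0.87, 0.67 and 0 in CZ. Both were higher in all LP libraries than in any CZ library, without passing the adjusted test (log2 fold changes 1.74 and 2.54, adjusted p = 0.149 and 0.0832). GID1C (Solyc01g098390.2), a gibberellin receptor, had 1.3, 2.41 and 0 in LP, against 0.29, 1.33 and 0.85 in CZ, and was below the minimum for testing.

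**Figure D2:**
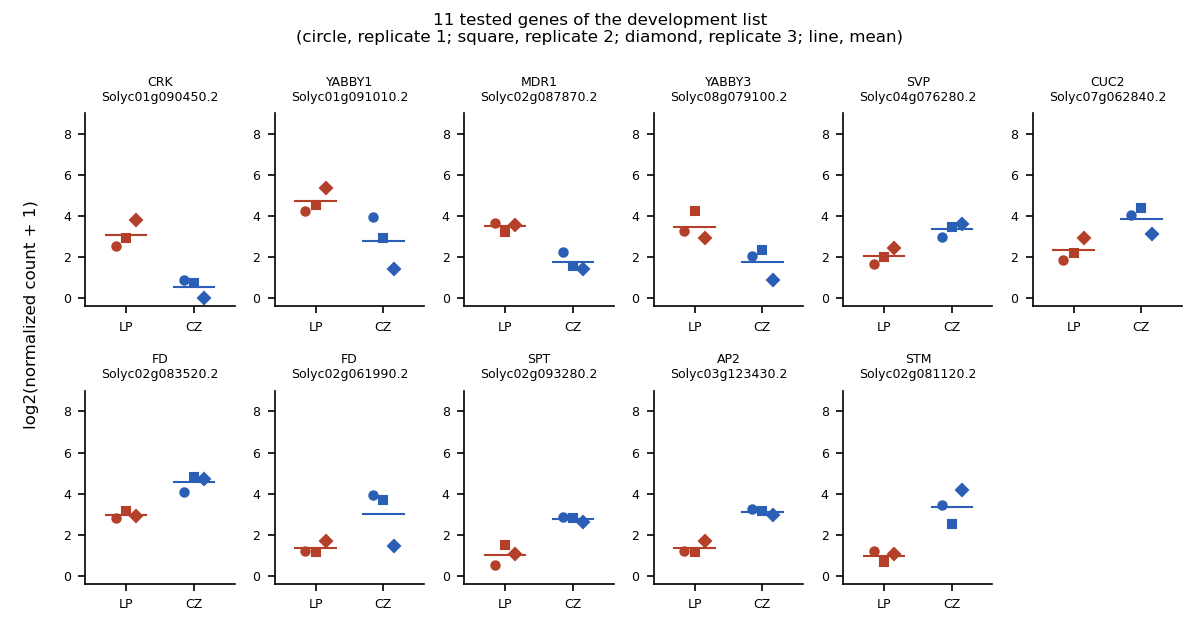
Log2(normalized count + 1) in the 3 LP libraries (red) and the 3 CZ libraries (blue) for the 11 tested genes of the development list, from the most positive to the most negative fold change; each symbol is a library and each line a mean. The first 4 genes are higher in LP and the other 7 lower, and only FD Solyc02g061990.2 has libraries of LP and CZ that overlap.

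Of the 56 genes in the chloroplast list 55 were tested, and 14 were called, all of them higher in LP (background 1.47%). The log2 fold change of 54 of the 55 was above 0, with a median of 1.49 against 0.04 over all genes, and 47 of the 55 had all LP libraries above all CZ libraries (background 9.79%). The list was chosen by the study on these libraries, with qPCR for genes that passed only at an unadjusted p. Tissue was also picked by its greening, so that neither count is independent evidence. The study's qPCR values are not used here, so a gene without a call may have that further evidence. Without LP1 or CZ1 only 5 genes of the list were called, and without LP3 or CZ3 9 genes. The largest significant change was that of PSBT (Solyc12g099650.1, chromosome 12, 66709872 to 66710413), listed with photosystem II, with 53.5, 24.1 and 36 in LP, against 6.64, 9.34 and 5.96 in CZ. The zones were far apart, and the call held in all 21 alternatives (log2 fold change 2.18, standard error 0.42, adjusted p = 7.99e-05). The 2 called genes of carbon metabolism encode the small subunit of Rubisco, which fixes CO2. RBCS Solyc03g034220.2 had 133, 104 and 152 in LP, against 26.8, 74 and 45.9 in CZ (log2 fold change 1.49, adjusted p = 1.23e-05) and was likewise called in all 21 alternatives. RBCS Solyc02g085950.2 had 84.6, 62.8 and 107 in LP, against 14.4, 79.4 and 27.2 in CZ, where CZ2 was above LP2 (log2 fold change 1.36, adjusted p = 0.00217). This last call was lost without LP1, LP3 or CZ1 (adjusted p = 0.0639, 0.0898 and 0.211) and was made by neither edgeR nor DESeq2 (0.124 and 0.492, with 1.28e-06 the lowest and 0.492 the highest over the alternatives).

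By function, 7 of the 16 genes of photosystem II were called (background of higher genes 1.47%, for the groups below as well), among them PSBP, PSBQ and PSBR of oxygen evolution, PSBX, and the antenna genes LHCB2.4 and LHCB1.3 (Solyc03g005760.1). PSBR (Solyc07g066310.2) had 131, 123 and 132 in LP, against 32.9, 79.4 and 76.6 in CZ, with a log2 fold change of 1.12 (adjusted p = 0.00157), the smallest in this group with LHCB1.3. The calls on PSBP and LHCB2.4 were lost without LP1, LP3, CZ1 or CZ3, that on PSBQ without LP1, LP2, CZ1 or CZ3, that on LHCB1.3 without LP1, LP3 or CZ1 and that on PSBX without LP2 or CZ1. Of the 11 photosystem I genes 3 were called, namely LHCA4, PSAK and PSAE, and PSAK (Solyc08g006930.2), which takes part in binding the antenna, had 47.5, 45.3 and 52.4 in LP, against 10.4, 26 and 15.3 in CZ (log2 fold change 1.53, adjusted p = 0.00241). The call on LHCA4 was lost without LP1, LP3, CZ2 or CZ3 and that on PSAE without any of the 6 libraries but CZ3. The LP values of PSBR and PSAK were nearly the same in the 3 libraries, and it was the CZ values that varied. Both calls were lost without CZ1 alone (adjusted p = 0.145 and 0.0634, ranges over all alternatives 2.06e-05 to 0.145 and 0.000158 to 0.0634).

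Beside both RBCS genes no other of the 10 genes of carbon metabolism was called, their log2 fold changes running from 1.16 for phosphoribulokinase (PRK) to 1.8 for a malate dehydrogenase (Solyc11g007990.1). Among 10 genes of other functions ACP4 (Solyc03g118410.2), an acyl carrier protein of lipid synthesis, and the ferredoxin gene FED (Solyc10g044520.1) were called. ACP4 had 28.9, 27.2 and 19.7 in LP, against 5.77, 13.3 and 2.55 in CZ and FED 38, 39.8 and 31.7 in LP, against 8.65, 23.3 and 6.81 in CZ, with no overlap in either, and both calls were lost without LP1, LP2 or CZ3. None of the 6 genes for plastid ribosomal proteins was called by limma as tested, edgeR or DESeq2. DESeq2 gave no adjusted p for RPL9, RPL27, PSRP-3 and RPS1. RPL6 and Solyc10g081100.1 were called in 5 and 3 of the 21 alternatives, both with a replicate block (limma, adjusted p = 0.03 and 0.0373). All 6 genes had an unadjusted p of at most 0.05 (background of higher genes 7.28%) and LP above CZ in every library (background 9.79%). Their median log2 fold change was 1.77, and that of photosystem II was 1.48. Standard errors of the 6 genes ran from 0.57 to 0.77, wider than this gap. Both groups were chosen by the study on these libraries, and a difference between them was not tested. The only gene of the list with a negative change was PRXIIE (Solyc10g083650.1), a peroxiredoxin, which the study lists as higher in LP than in CZ. In the deposited values it had 6.05, 1.81 and 2.18 in LP, against 4.04, 12.7 and 1.7 in CZ (log2 fold change −0.52, adjusted p = 0.856). Of the 14 calls, 12 needed at least 1 LP or CZ library, without which adjusted p lay between 0.0505 and 0.317 (range over all alternatives 1.28e-06 to 0.492). LP1 and CZ1 were needed most often, for 9 of the calls each. Of the 14 genes, 7 were not called by edgeR (PSBP, PSBQ, LHCB2.4, LHCB1.3, PSAE, RBCS Solyc02g085950.2 and FED) and 3 not by DESeq2 (LHCB1.3, PSAE and RBCS Solyc02g085950.2).

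**Figure D3:**
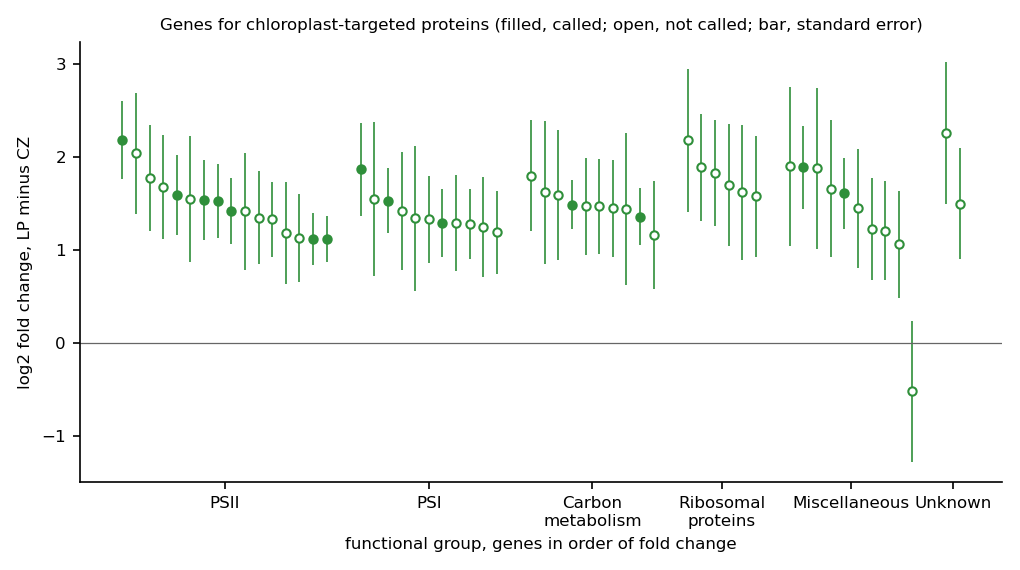
Log2 fold change between LP and CZ of the 55 tested genes of the chloroplast list, by functional group, with standard errors as bars; filled circles were called and open circles were not. All but PRXIIE, at −0.52, lie above 0, and no gene of the ribosomal group is filled.

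Genes in families of similar sequence, such as RBCS, LHCB1, PSBO, PSAH, LHCA3, FBA2 and FD, could have their reads split or shared by the counting, and how such reads were treated is not stated in the sources used here. The values of single family members are uncertain for that reason.

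Outside the chloroplast list 34 genes rose in LP, with ratios of mean normalized counts between 1.85 and 40.3 and a ratio of at least 5 in 16 of them. Their median log2 fold change was 2.06, against 1.53 for the 14 called genes of the chloroplast list, a description of genes that were selected by this same contrast. Of the 34, 12 were not called by edgeR, 16 not by DESeq2 and 17 not by limma without the minimum. YABBY1 and an extensin-like gene are the only members with a name or description. For 17 of the 34, a single library held more than 50% of the zone's sum, LP2 in 13 genes, LP1 in 3 and LP3 in 1. This was so for 0 of the 14 called genes of the chloroplast list. The share over all genes tested was not determined. The 14 genes had at least 94 reads in LP and the 34 at least 46, and the 14 were also chosen by the study on these libraries. The counts are therefore given as a description.

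For 6 of these genes no single LP or CZ library was needed for the call. Solyc07g007760.2 (chromosome 7, 2394267 to 2396320) was the most abundant, with 175, 246 and 118 in LP, against 12.4, 55.4 and 27.2 in CZ (log2 fold change 2.64, standard error 0.26, adjusted p = 4.23e-18). Solyc12g094620.1 (chromosome 12, 64801796 to 64804044) had 69.1, 95.3 and 49.2 in LP, against 5.48, 14.7 and 2.55 in CZ, the largest positive log2 fold change of all (3.29, standard error 0.37, adjusted p = 2.92e-14). In both, the lowest LP value exceeded the highest CZ value by a wide margin, and in both replicate 2 was the highest library of its zone. Solyc06g076140.2 (chromosome 6, 47275763 to 47277138) had 34.5, 34.4 and 12 in LP, against 4.62, 2.67 and 1.7 in CZ (log2 fold change 2.73, standard error 0.5, adjusted p = 3.75e-05). Here LP1 and LP2 were alike and LP3 was lower, yet still above CZ. Solyc09g097770.2 (chromosome 9, 71790220 to 71791711) had 27.6, 83.3 and 9.83 in LP, against 1.73, 5.34 and 2.55 in CZ (log2 fold change 2.91, adjusted p = 7.31e-07). Solyc09g092110.2 (chromosome 9, 71261708 to 71262830) had 19.9, 82.1 and 22.9 in LP, against 4.33, 7.34 and 3.4 in CZ (log2 fold change 2.58, adjusted p = 9.03e-06). Solyc10g086570.2 (chromosome 10, 65359447 to 65360356) had 36.7, 106 and 33.9 in LP, against 4.33, 24 and 7.66 in CZ (log2 fold change 2.31, adjusted p = 1.53e-06). In these last genes LP2 alone held most of the LP sum, but LP1 and LP3 were also above all CZ libraries. The first 5 were called in all 21 alternatives, and Solyc10g086570.2 in all but DESeq2 (adjusted p = 0.12, range over all alternatives 2.97e-10 to 0.12).

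Solyc10g086570.2 has no name in the sources, but its neighbour on chromosome 10, at a distance of 3395 bases, is RCA (Solyc10g086580.1), which encodes Rubisco activase and is on the chloroplast list. RCA had 21.2, 13.3 and 13.1 in LP, against 2.88, 11.3 and 3.4 in CZ, with the zones apart (log2 fold change 1.47, standard error 0.51, unadjusted p = 0.00395, adjusted p = 0.128). Of 16 tested genes that directly neighbour a called gene, 3 had an unadjusted p of at most 0.05 in the direction of the called gene, RCA, LHCB1.3 (Solyc03g005770.1, next to the other LHCB1.3) and Solyc01g100750.2, all of them higher in LP (background 7.28%). RCA and this LHCB1.3 gene are on the chloroplast list, which the study chose as higher in LP on these libraries. The count is therefore no independent evidence about neighbours. Whether neighbours share reads was not tested.

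LP2 also held most of the LP sum of 10 further genes, whose log2 fold changes ran from 1.67 to 2.88 (adjusted p = 0.00157 to 0.0315). Solyc11g017250.1 had 6.48, 21.1 and 6.55 in LP, against 0.87, 0.67 and 0 in CZ, with 4 reads in all of CZ. Solyc07g052480.2 had 6.91, 34.4 and 8.74 in LP, against 0, 4.67 and 0.85 in CZ. Solyc06g066620.2 had 8.64, 38.6 and 7.65 in LP, against 2.31, 3.33 and 0.85 in CZ. Their LP1 and LP3 values agreed closely with each other and exceeded those of every CZ library. Solyc04g071140.2 had 11.2, 34.4 and 6.55 in LP, against 0.87, 4 and 3.4 in CZ. Solyc06g007180.2 had 7.34, 50.1 and 5.46 in LP, against 1.15, 2.67 and 3.4 in CZ. Solyc03g006360.2 had 6.05, 26.6 and 5.46 in LP, against 1.15, 3.33 and 0.85 in CZ. In these too the zones did not overlap, but the margin between the lowest LP and the highest CZ library was small. Solyc08g083240.2 had 9.07, 16.3 and 3.28 in LP, against 2.02, 1.33 and 0 in CZ. Solyc10g054780.1 had 17.3, 20.5 and 2.18 in LP, against 4.04, 1.33 and 0 in CZ. In both, LP3 was the low library, and in Solyc10g054780.1 it was below CZ1. Solyc09g084480.2 had 23.3, 39.2 and 8.74 in LP, against 2.02, 15.3 and 4.25 in CZ. Solyc07g054730.1 had 22.5, 75.4 and 42.6 in LP, against 7.5, 26.7 and 9.36 in CZ. In this last pair CZ2 was above the lowest LP library, so that the zones overlapped. All 10 calls were lost without LP2 (adjusted p = 0.16 to 0.535, range over all alternatives 1.03e-05 to 0.535), and 8 of them also without LP1, CZ1 or CZ3.

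LP1 held most of the LP sum of 3 genes. Solyc07g054070.2 had 237, 3.62 and 2.18 in LP, against 2.02, 4 and 0 in CZ, the highest ratio of means of all (40.3-fold), and yet LP2 and LP3 lay within the range of CZ. Without LP1 no library reached the minimum of 6, and with a variance estimate robust to outlying libraries the adjusted p was 0.557, against 0.0193 as tested (0.278 without CZ3, range over all alternatives 2.49e-05 to 0.557). The difference in that gene is one between LP1 and the other libraries. Solyc08g074620.1 had 52.7, 16.3 and 26.2 in LP, against 13.6, 4 and 5.1 in CZ. Solyc06g065970.1 had 22.5, 10.9 and 8.74 in LP, against 1.15, 5.34 and 2.55 in CZ. In both of these all LP libraries were above CZ (log2 fold change 1.94 each, adjusted p = 0.00215 and 0.0193), and without LP1 the calls were lost (adjusted p = 0.203 and 0.33). The second was also lost without LP2, CZ1 or CZ3 (0.0532, 0.181 and 0.0613, range over all alternatives of both genes 0.000172 to 0.33).

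In the remaining 14 of the 34 genes the LP libraries contributed more evenly. Solyc04g015030.2 had 26.3, 38 and 18.6 in LP, against 4.9, 6.67 and 6.81 in CZ. Solyc12g087940.1 had 22.5, 13.3 and 10.9 in LP, against 1.73, 3.33 and 0.85 in CZ. Solyc07g043420.2 had 79.5, 51.3 and 35 in LP, against 22.8, 18 and 5.96 in CZ. LP exceeded CZ in all libraries (log2 fold changes 1.96, 2.5 and 1.86, adjusted p = 0.00146, 0.00241 and 0.000329), and each of these calls needed 1 or 2 libraries, LP2 for the first (adjusted p = 0.0505), LP1 for the second (0.129) and LP1 and CZ3 for the third (0.0871 and 0.0621, range over all alternatives of the 3 genes 5.5e-06 to 0.129).

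The described gene among them, Solyc01g006400.2 (chromosome 1, 1020951 to 1023144), encodes a cysteine-rich extensin-like protein, and extensins are structural glycoproteins of the cell wall. It had 28.1, 20.5 and 10.9 in LP, against 8.08, 2.67 and 3.4 in CZ, without overlap (log2 fold change 1.89, standard error 0.5, adjusted p = 0.0176). That call was lost without LP1, LP2, CZ2 or CZ3 (adjusted p = 0.0937 to 0.273, range over all alternatives 0.00453 to 0.273), with TMM scaling and by both edgeR and DESeq2 (adjusted p = 0.0586 and 0.0523).

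Solyc01g109660.2 was the most abundant of the group and changed least, with 72.5, 104 and 83 in LP, against 44.4, 69.4 and 26.4 in CZ (log2 fold change 0.97). Solyc02g080530.2 had 25.5, 22.3 and 14.2 in LP, against 4.04, 8 and 3.4 in CZ. Solyc07g042390.1 had 7.34, 13.9 and 6.55 in LP, against 0.87, 2.67 and 0 in CZ. In these genes the zones were apart, with a narrow gap in Solyc01g109660.2. Solyc01g103590.2 had 21.2, 24.7 and 12 in LP, against 7.5, 5.34 and 4.25 in CZ. Solyc12g011450.1 had 18.6, 15.7 and 19.7 in LP, against 2.6, 8 and 7.66 in CZ. Solyc04g015620.2 had 16.8, 21.7 and 24 in LP, against 5.77, 14.7 and 3.4 in CZ. LP and CZ did not overlap in any of the 3, and the LP values of Solyc12g011450.1 varied little. Solyc01g100760.2 had 15.1, 9.05 and 21.9 in LP, against 6.35, 2.67 and 0.85 in CZ. Solyc02g070500.1 had 15.1, 13.3 and 24 in LP, against 6.35, 6.67 and 0.85 in CZ. Solyc12g006470.1 had 16.8, 15.1 and 22.9 in LP, against 7.21, 6.67 and 2.55 in CZ. These 3 genes were highest in LP3 and lowest in CZ3. Solyc09g062970.1 had 42.8, 13.3 and 42.6 in LP, against 24.5, 6.67 and 7.66 in CZ, and CZ1 was above LP2. The log2 fold changes of these 10 genes ran from 0.97 to 2.36 (adjusted p = 0.00475 to 0.0471). Each call was lost without at least 3 of the 6 libraries, with adjusted p between 0.0505 and 0.48 (range over all alternatives 0.000723 to 0.48). The libraries concerned were LP1 in all 10, LP2 in 9, CZ3 in 9, LP3 in 8 and CZ1 and CZ2 in 3 each. Of these 10 genes edgeR called only Solyc02g080530.2, and DESeq2 only that gene and Solyc01g103590.2.

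**Figure D4:**
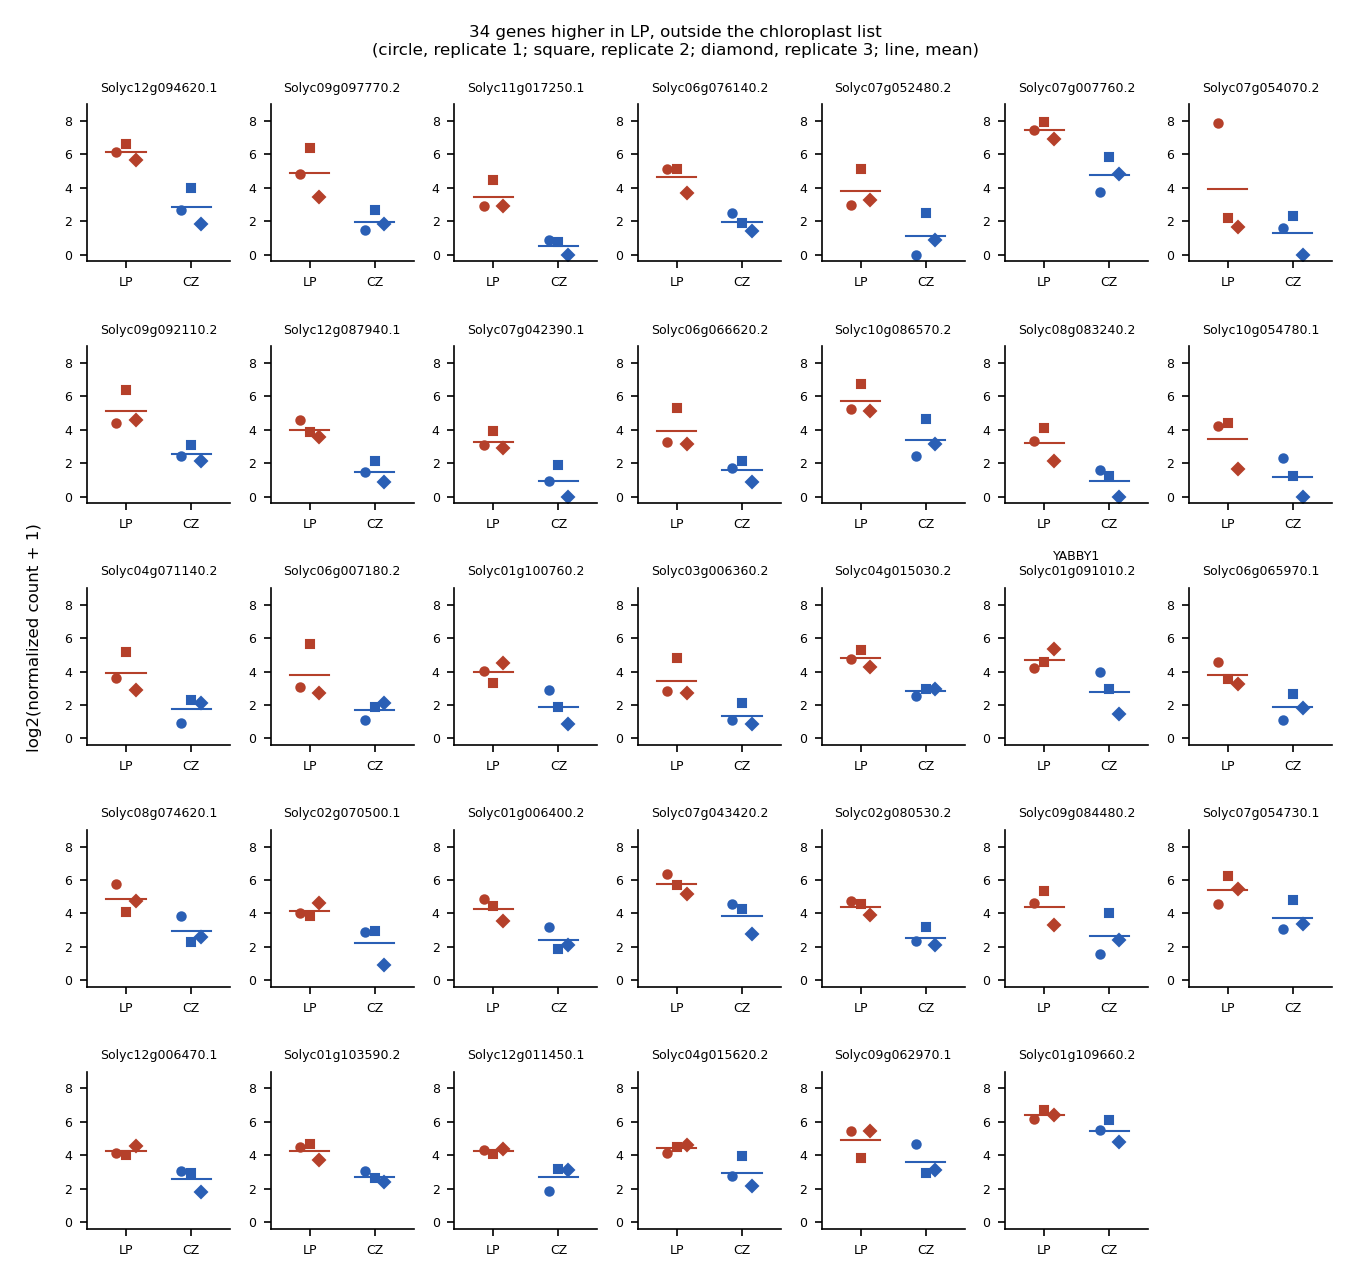
Log2(normalized count + 1) in the 3 LP libraries (red) and the 3 CZ libraries (blue) for the 34 genes outside the chloroplast list that were higher in LP, from the largest fold change to the smallest; each symbol is a library and each line a mean. Replicate 2, the square, stands above replicates 1 and 3 in LP in 19 of the panels, and Solyc07g054070.2 rests on the LP1 circle alone.

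The 10 genes that were lower in LP include STM and FD, given above, and 8 without a name in the sources. Solyc11g071380.1 (chromosome 11, 54875597 to 54876351) showed the most negative change, with 1.3, 0 and 1.09 in LP, against 12.4, 26.7 and 34 in CZ (log2 fold change −3.8, standard error 0.66, adjusted p = 9.03e-06). It had 4 reads in LP and 123 in CZ, the lowest CZ library was far above the highest LP library, and the call held in all 21 alternatives. Solyc01g100030.2 (chromosome 1, 90109000 to 90110585) had 23.3, 19.9 and 32.8 in LP, against 67.8, 59.4 and 138 in CZ (log2 fold change −1.69, standard error 0.29, adjusted p = 9.03e-06). The zones did not overlap, and this call too held in all 21 alternatives. Solyc03g114940.2 (chromosome 3, 64796173 to 64798714) had 10.8, 8.45 and 19.7 in LP, against 28, 44.7 and 88.5 in CZ (log2 fold change −1.89, standard error 0.36, adjusted p = 7.73e-05). It needed no single library either and was missed by DESeq2 only (adjusted p = 0.097, range over all alternatives 5.66e-07 to 0.097).

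Solyc05g016710.1 had 1.3, 1.81 and 7.65 in LP, against 16.7, 35.4 and 10.2 in CZ. Solyc11g006230.1 had 11.2, 27.8 and 20.8 in LP, against 29.4, 74 and 53.6 in CZ. Solyc06g082390.2 had 2.16, 4.83 and 3.28 in LP, against 10.4, 14 and 17.9 in CZ. In each of them every LP library was below every CZ library, by a small margin in the first 2. Their log2 fold changes were −2.34, −1.34 and −1.78 (adjusted p = 0.00233, 0.00763 and 0.0403). The first call was lost without LP1 or CZ2, the second without LP1, CZ2 or CZ3 and the third without any of the 6 libraries (adjusted p = 0.0505 to 0.34, range over all alternatives of the 3 genes 0.000385 to 0.34).

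A last pair of calls came from 1 library each. Solyc08g077360.2 had 0.43, 0 and 0 in LP, against 129.8, 3.33 and 2.55 in CZ, and Solyc09g082110.2 had 0, 0 and 1.09 in LP, against 0.29, 2 and 330.1 in CZ. LP held a single read of each gene, and nearly all CZ reads of the first were in CZ1 and of the second in CZ3. The log2 fold changes, −3.49 and −3.09 (adjusted p = 0.00463 and 0.0256), depend on the value added before taking logs. Without CZ1 or CZ3, whichever carried the reads, the gene was below the minimum of 6, and DESeq2 and both filters on mean counts made neither call. The first was also lost without LP2 (adjusted p = 0.0505) and the second without any of the LP libraries (0.0584 to 0.244, range over all alternatives of both genes 5.82e-06 to 0.244).

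**Figure D5:**
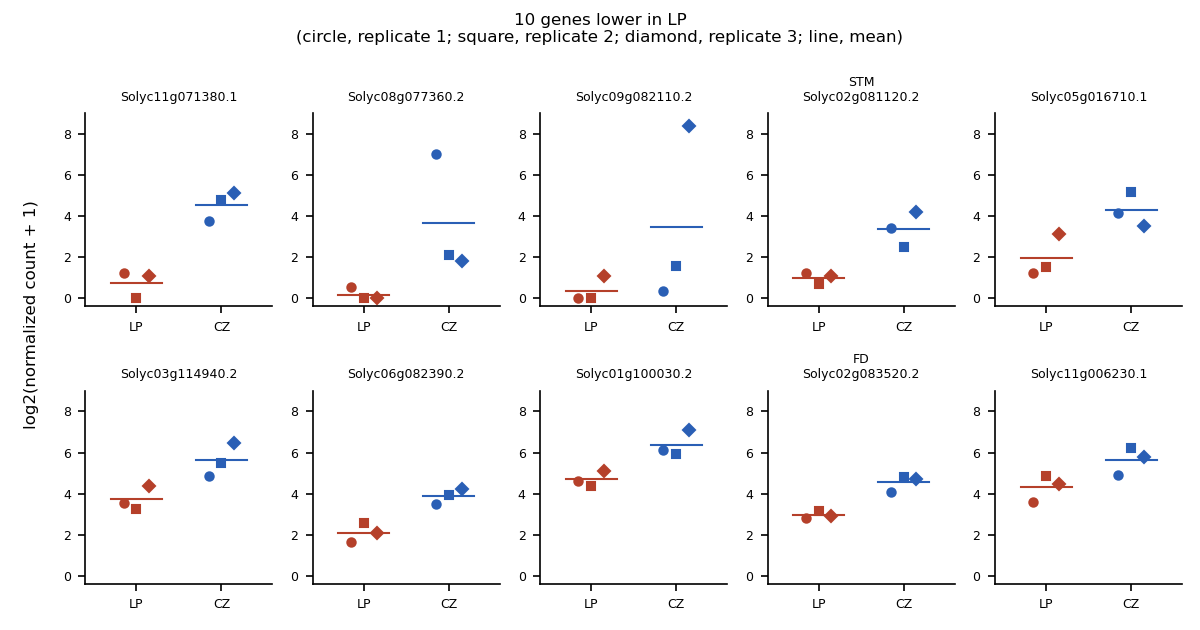
Log2(normalized count + 1) in the 3 LP libraries (red) and the 3 CZ libraries (blue) for the 10 genes that were lower in LP, from the most negative fold change to the least; each symbol is a library and each line a mean. The LP values of Solyc11g071380.1 are all near 0, and the CZ means of Solyc08g077360.2 and Solyc09g082110.2 are each raised by 1 symbol.

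The readable descriptions of the study's supplement cover 84 of the genes tested, of which 1, the extensin-like gene, was called. At an unadjusted p of at most 0.05 there were 8 (background 11.4%), 2 higher (background 7.28%) and 6 lower (background 4.1%), a share near that of all genes, and the values of those without a call are given as a description. All 8 have identifiers that begin with Solyc00g or Solyc01g, so the described genes may not stand for all genes tested. The other higher gene was a sterol reductase (Solyc01g009310.2), with 5.61, 10.9 and 22.9 in LP, against 5.77, 2.67 and 1.7 in CZ and an overlap between the zones (adjusted p = 0.134). A ribosomal protein S27 gene (Solyc01g008080.2) had 44, 50.7 and 32.8 in LP, against 58.3, 72 and 98.7 in CZ, and a regulatory subunit gene of the 26S proteasome (Solyc01g008370.2) had 12.5, 7.24 and 5.46 in LP, against 15.6, 18.7 and 17.9 in CZ. Both were lower in all LP libraries, by a log2 fold change of −0.82 and −1.03 (adjusted p = 0.114 and 0.298). Solyc00g007260.2, described as sentrin-specific protease 7, a class of enzymes that cut the protein tag SUMO, had 2.59, 1.21 and 1.09 in LP, against 5.48, 10.7 and 5.1 in CZ. Solyc00g044350.2, an EPIDERMAL PATTERNING FACTOR-like gene of a family of secreted peptides known from Arabidopsis for stomatal spacing, had 1.73, 0 and 1.09 in LP, against 2.6, 7.34 and 4.25 in CZ. Solyc01g020320.2, described as unknown, had 0.86, 0 and 0 in LP, against 1.44, 7.34 and 1.7 in CZ. These had less in every LP library than in any CZ library, at adjusted p of 0.284, 0.33 and 0.406. A gene of the MATE efflux family of transporters (Solyc01g008420.2) had no read in LP, and 7.21, 2 and 1.7 in CZ (adjusted p = 0.384).

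The plastid genome itself, which encodes the partner subunits of many of the proteins above, contributed few reads. Its genes held 0.0597% ± 0.0252 of the reads of LP and 0.0604% ± 0.0189 of those of CZ (SD, n = 3 each), a difference smaller than the spread (exact permutation test, two-sided, p = 0.9, where 0.1 is the smallest possible p). CEL-Seq primes on poly(A) tails, which plastid transcripts mostly lack, so these shares are no measure of plastid transcription. Reads were found for 17 plastid genes, and 2 reached the minimum for testing. clpP, for a protease subunit, had 2.59, 22.9 and 15.3 in LP, against 4.9, 18 and 13.6 in CZ. ycf1, for a protein of the plastid envelope, had 4.32, 6.03 and 4.37 in LP, against 6.35, 6.67 and 8.51 in CZ. Neither was called, with log2 fold changes of −0.08 and −0.47 (adjusted p = 0.982 and 0.799), and none of limma, edgeR and DESeq2 gave an unadjusted p of at most 0.05 for them.

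In PZ, which lies between the other zones, the mean of log2(normalized count + 1) lay between those of LP and CZ for 46 of the 48 higher genes and all 10 lower genes, as a description of genes chosen for being far apart in those zones. Means of normalized counts without the log did so for 45 and 10. On the log scale PZ stood a median of 55.0% of the way from CZ towards LP for the higher genes and 50.3% for the lower ones. Single genes took very different places. On that scale the PZ mean of Solyc03g006360.2 was beyond LP, at 107% of the way, and that of Solyc07g054070.2 beyond CZ, at −0.962%. Among the other higher genes, that of Solyc08g083240.2 was at 91.5%, that of Solyc01g109660.2 at 91.1% and that of Solyc12g011450.1 at 90.5%. Among the lower genes, Solyc09g082110.2 and Solyc08g077360.2, each called from 1 library, had PZ means at 97.3% and 93%. The PZ mean of Solyc11g071380.1 was at 84.1%. In contrast, that of Solyc07g043420.2 was 0.297% of the way and that of RBCS Solyc02g085950.2 0.501%, although without the log the mean of this RBCS gene was 32.1 in PZ, below the 40.3 of CZ. The 58 genes lie on all 12 chromosomes. Chromosome 7 held the highest share of called genes (9 of 236, 3.81%) and chromosome 5 the lowest (2 of 209, 0.957%), against 1.77% of all genes tested. These counts are small, and differences between chromosomes were not tested.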

How the data were processed

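CEL-Seq reads the 3′ ends of transcripts after linear amplification with a barcode per library. According to the methods and the submitters' processing notes, the authors aligned reads to the SL2.50 build of the tomato genome, to which the chloroplast genome had been added, using Bowtie2 2.1.0 (local mode), and counted them per gene by an HTSeq-based script. Their own tests used DESeq2 1.4.0. The primers carried molecular identifiers, but whether these were collapsed is not stated. The values used here are a signal as deposited by the authors: the reads of a gene after division by a library-specific factor, given to 2 decimals, by a normalization that is not given in the sources used here. Within each library, 100% of non-zero values fell on whole multiples of a step (tolerance 0.0051), which gave back the whole reads. Intervals and limits set by read numbers cover counting error only.

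Genes with a value of at least 6 in at least 1 LP or CZ library were tested with limma 3.58.1 in R 4.3.3 on log2(value + 1), with zone as the only factor, all 9 libraries and a trend of variance with level. Adjustment of p-values followed Benjamini and Hochberg, over 3270 genes. The prior degrees of freedom were 371.7. Alternatives were pseudocounts of 0.5 and 2, other filters, the same total per library, TMM scaling, only LP and CZ, a block for the replicate number, a robust variance, the adjusted p alone, tests of the recovered reads with edgeR 4.0.16 (54 genes called) and DESeq2 1.42.0, and leaving out each library. The scripts were tested on simulated data. All genes called, both lists of the study and described genes with an unadjusted p of at most 0.05 were named; genes without a name in the sources are given by identifier. The gene list of the reference holds no identifiers of this kind, so cell-type markers beyond STM, CUC2, YABBY1, YABBY3 and the chloroplast list were not analysed here, nor were sequences. The genes, lists and tests were chosen with earlier results of these data known. Values and figures were made with Python 3.11.15, pandas 2.3.3, scipy 1.17.1 and matplotlib 3.10.9.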

Additional observations from a re-analysis of the deposited data

How the results depend on the processing

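Against 58 calls in all, 44 outside the chloroplast list, 14 in it and 3 in the development list, leaving out 1 library at a time gave 22 to 63, 17 to 46, 5 to 19 and 1 to 3. The lowest of each was reached without LP1, in the chloroplast list also without CZ1 and in the development list also without LP2. Without LP2 there were 30 calls and without CZ3 32. No filter gave 34, 26, 8 and 2 calls, a mean of at least 3 over the 6 libraries 32, 22, 10 and 2, and a zone mean of at least 6 gave 23, 16, 7 and 0 (limma, with an unadjusted p of at most 0.05 for all 10 development genes tested there). DESeq2 gave 37, 25, 12 and 3, edgeR 54, 47, 7 and 1, and TMM scaling 39, 31, 8 and 3. Of the 58 genes, 37 were also called by edgeR and 35 by DESeq2, and of the 44 outside the chloroplast list edgeR called 30. All 3 tools called 29 genes, 24 higher and 5 lower. The replicate numbers are shared by the zones, but whether they pair the libraries is not given in the sources used here. Deviations from the zone means correlated with 0.02 to 0.14 between libraries of the same number and with −0.11 to 0.06 between others. Outside its own zone, each of the 9 libraries correlated best with a library of its own number. With a replicate block 77 genes were called (58 outside the chloroplast list, 19 in it and 4 in the development list), with all 58 calls made without the block among them, and with only LP and CZ and the block, added after seeing the data, 80. The other settings kept counts within 1.5 times, and no result named changed its direction after being called. The share of reads on plastid genes differed by −0.0105 to 0.0138 percentage points when a library was left out. Of genes with a mean below 6, only 4 were called, and with few reads per gene absent and undetectable differences cannot be told apart.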

Other observations

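Of the 34 genes outside the chloroplast list that were higher in LP, 10 (29.4%) were highest in replicate 2 of LP, of CZ and of PZ alike, against 7.03% of all genes tested. These were Solyc01g109660.2, Solyc03g006360.2, Solyc04g071140.2, Solyc07g052480.2, Solyc07g054730.1, Solyc09g084480.2, Solyc09g092110.2, Solyc09g097770.2, Solyc10g086570.2 and Solyc12g094620.1. Without all 3 libraries numbered 2, a choice made after seeing the data, the log2 fold change of all 10 was above 0 and 6 were still called, among 54 calls in total. In the chloroplast list the order of the LP libraries was another. LP2 was the highest LP library in 12 of its 55 tested genes (21.8%), against 19 of the 34 genes (55.9%) and 40.4% of all genes. CZ2 was the highest CZ library in 38 of the 55 (69.1%) and also in 20 of the 34 (58.8%), against 35.8% of all genes. What the libraries numbered 2 have in common is not given in the sources used here, and its part in these differences was not tested.

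No read in CZ was found for 12 of the genes tested and no read in LP for 13, most of which had reads in 1 or 2 libraries of the other zone. Only Solyc02g065780.1 was without reads in CZ and with reads in all LP libraries, at 3.02, 6.64 and 5.46 normalized counts. Its LP mean was 10.3-fold the limit set by 3 reads over CZ, and it was not called (adjusted p = 0.179). Solyc01g008420.2, of the MATE family, and Solyc07g054950.1 had reads in all CZ libraries and none in LP. Solyc07g054950.1 had 0.87, 2.67 and 6.81 normalized counts in CZ, with a mean 5.62-fold the limit in LP, and was not called either.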
